A study of Mus musculus with 3 samples.

Results

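The genes described here carry a cell through G2 phase and mitosis. They are 45 genes, chosen by name from the biology of these phases, of 36870 gene names on the array. The choice was made with earlier results of these data known, namely the differences of the LOC1 and LOC3 arrays from the LPS array and the deposited ratios of LPS to unchallenged macrophages. Those values are therefore given as a description and support nothing by themselves. All 45 genes were on the array, with 91 probes, and the brightest probe of each was well above background on all 3 arrays.

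RNA came from RAW264.7, a virus-transformed mouse macrophage line that divides continuously in culture, so every group shares that background. The LPS group received the Gram-negative cell wall component that activates TLR4, for 3 h. The LOC1 and LOC3 groups received Lactiplantibacillus plantarum LOC1 or LOC3, strains isolated from tea leaves, before the same LPS stimulation. Exposure to the bacteria lasted 12 h by the sample labels and 24 h by the methods, the bacteria were washed away before LPS, and the LPS dose is not the same in the methods and the results of the study. Unchallenged macrophages enter only through the ratios that the authors deposited. Each condition was measured on 1 one-colour array, so no SD between cultures, test or p-value can be given for any difference.

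Passage from G2 into mitosis is set by cyclin A and cyclin B bound to Cdk1, which Cdc25 phosphatases switch on. Polo-like and Aurora kinases then build the spindle, kinetochores attach chromosomes to it, and the checkpoint proteins hold back the anaphase-promoting complex until attachment is complete. The mRNAs of most of these proteins are made periodically, late in the cycle, so their level in a culture is widely used as a readout of how many cells are cycling. In RNA from a whole culture, fewer cells in G2 and mitosis and less of each mRNA per cell cannot be told apart.

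Many promoters of this class are known to hold a pair of short elements, the CHR (cell cycle genes homology region) and CCAAT boxes, and the RefSeq promoter windows of these genes were read for both. A window from the GRCm38.p6 assembly was matched for 37 of the 45 genes. Ccna2, Cdc25c, Foxm1, Aurkb, Incenp, Tpx2, Kif20a and Smc4 had no entry. The letters searched were TTTGAA for the CHR, with TTCAAA on the other strand, and CCAAT, with ATTGG on the other strand. A CHR and a CCAAT match can share at most 1 base. The 100 bases before the annotated start follow for 9 genes, 5′ to 3′ on the strand of the gene, with every match in capitals. Kif11, the gene lowest with both strains, Cdk1, Top2a, Ube2c, Espl1 and Cdc20 show the arrangement of a CCAAT box upstream of a CHR. Ccnb1 has CCAAT boxes alone, Ncapg has a CHR alone in this stretch, and Pttg1 has neither.
Kif11 (chr19:37376282-37376381, plus strand): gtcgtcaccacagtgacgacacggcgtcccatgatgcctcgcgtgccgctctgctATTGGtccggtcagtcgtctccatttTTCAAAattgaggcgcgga
Cdk1 (chr10:69352913-69353012, minus strand): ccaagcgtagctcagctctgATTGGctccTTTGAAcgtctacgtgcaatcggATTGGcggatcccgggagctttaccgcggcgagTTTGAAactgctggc
Top2a (chr11:99024190-99024289, minus strand): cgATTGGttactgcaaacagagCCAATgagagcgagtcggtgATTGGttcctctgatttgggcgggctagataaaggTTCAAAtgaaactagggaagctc
Ube2c (chr2:164769829-164769928, plus strand): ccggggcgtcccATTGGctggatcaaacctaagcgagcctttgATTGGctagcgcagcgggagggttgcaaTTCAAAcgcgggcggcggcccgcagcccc
Espl1 (chr15:102296193-102296292, plus strand): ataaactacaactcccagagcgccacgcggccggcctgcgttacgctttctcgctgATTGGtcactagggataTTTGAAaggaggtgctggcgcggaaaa
Cdc20 (chr4:118437344-118437443, minus strand): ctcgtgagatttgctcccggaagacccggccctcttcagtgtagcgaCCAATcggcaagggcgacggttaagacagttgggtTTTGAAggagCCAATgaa
Ccnb1 (chr13:100786487-100786586, minus strand): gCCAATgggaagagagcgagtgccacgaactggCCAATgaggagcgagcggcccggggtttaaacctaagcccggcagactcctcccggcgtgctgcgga
Ncapg (chr5:45669825-45669924, plus strand): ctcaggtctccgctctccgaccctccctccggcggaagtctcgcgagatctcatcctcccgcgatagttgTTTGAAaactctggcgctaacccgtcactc
Pttg1 (chr11:43425982-43426081, minus strand): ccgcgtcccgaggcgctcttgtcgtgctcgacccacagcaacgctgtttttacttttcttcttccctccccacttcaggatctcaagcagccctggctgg

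Over the whole window of 250 bases before to 50 after the start, CHR letters were found in 26 of the 37 genes, or 70.3%, against 20.2% of the 27025 genes with a window. Within 50 bases of the start the shares were 62.2% and 5.72%. CCAAT letters were found in 27 of the 37 genes, or 73.0%, against 41.1% of all genes with a window, and within 50 bases of the start in 48.6% against 15.6%. Plk4, Melk, Birc5, Mad2l1, Nuf2, Nusap1 and Pttg1 held neither set of letters. These are matches of letters, not measured sites, and the absence of a match says only that the letters are not in this window.

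**Figure D1:**
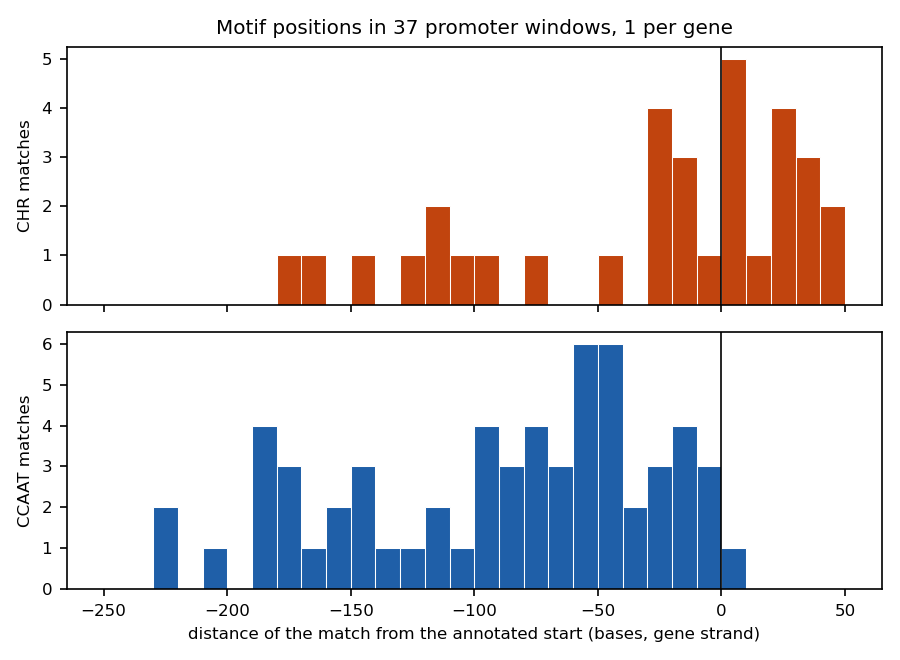
Number of CHR (upper) and CCAAT (lower) matches by distance from the annotated start, in bins of 10 bases on the strand of the gene, in 1 promoter window for each of 37 genes. Of 33 CHR matches, 24 lay within 50 bases of the start, while 38 of 60 CCAAT matches lay in the 100 bases before it.

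The plot of motif positions shows the CHR letters gathered around the start, with a median position of -15, and the CCAAT letters upstream of them, with a median position of -76.

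Levels are given as the deposited background-subtracted intensity of the brightest probe. Differences are on the log2 scale after each array was set to its own 75th percentile, with intensities of 367, 332 and 334 for LPS, LOC1 and LOC3. Spot noise alone, read from 265 to 268 bright probes printed 10 times on each array, gave an SD of 0.05 for a difference, so differences within 0.10 lie inside 2 SD. This SD holds no spread between cultures. The limit of 0.10 was used for every gene in the counts below, although dim probes gave a larger SD of 0.31. The macrophage markers were well above background on all 3 arrays in 7 of 7 cases, with summed intensities of 419215, 325266 and 357604 for LPS, LOC1 and LOC3. Most of these sums was Lyz2, at 244528, 185159 and 211178. The markers did not move together. Unscaled intensities of Csf1r, Lyz2, Itgam and Spi1 were lower on both strain arrays than with LPS, those of Adgre1 and Cd68 were higher, and Fcgr1 was mixed. Of 7 markers of T cells, B cells, fibroblasts and epithelium, 3 (Cd3g, Cd79a and Cdh1) were not well above background on any array. Cd3e, Col1a1 and Dcn were well above background on all 3 arrays, and Epcam on 1. The summed intensities of all 7 were 570, 513 and 556, of which Cd3e gave 396, 416 and 451. The part of the markers in the results below was not tested.

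Compared with LPS alone, the mitosis and G2 genes were lower on both arrays from macrophages given lactobacilli. With LOC1, 44 of the 45 genes lay below 0, with a median difference of -0.55 and a range from -1.17 to 0.03. The middle part of the list, between its quartiles, ran from -0.75 to -0.30. With LOC3, 43 genes lay below 0, with a median of -0.59 and a range from -1.24 to 0.13. Over all genes compared the medians were 0.03 with LOC1, over 20018 genes, and 0.07 with LOC3, over 19789 genes, and the shares below 0 were 46.3% and 41.9%. Both comparisons use the same LPS array, so an error on that array would move them together.

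The shifts were broad and of modest size. At least 1.5-fold lower were 21 genes with LOC1, where 10.5% of all genes were so, and 23 genes with LOC3, where 8.71% were so. With both strains 19 genes were at least 1.5-fold lower, where 6.93% of all genes were so. At least 2-fold lower was only Kif11 with either strain, where the shares of all genes were 3.5% and 2.92%. None was 1.5-fold higher with either strain, where the shares were 8.75% and 8.65%. Lower by over 2 SD of the spot noise of bright probes were 41 genes with each strain, where 36.4% of all genes were so with LOC1 and 32.2% with LOC3. All genes include dim ones, for which the spot noise is larger. The list was chosen with these values in view, so nothing is read from its counts against the shares of all genes.

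**Figure D2:**
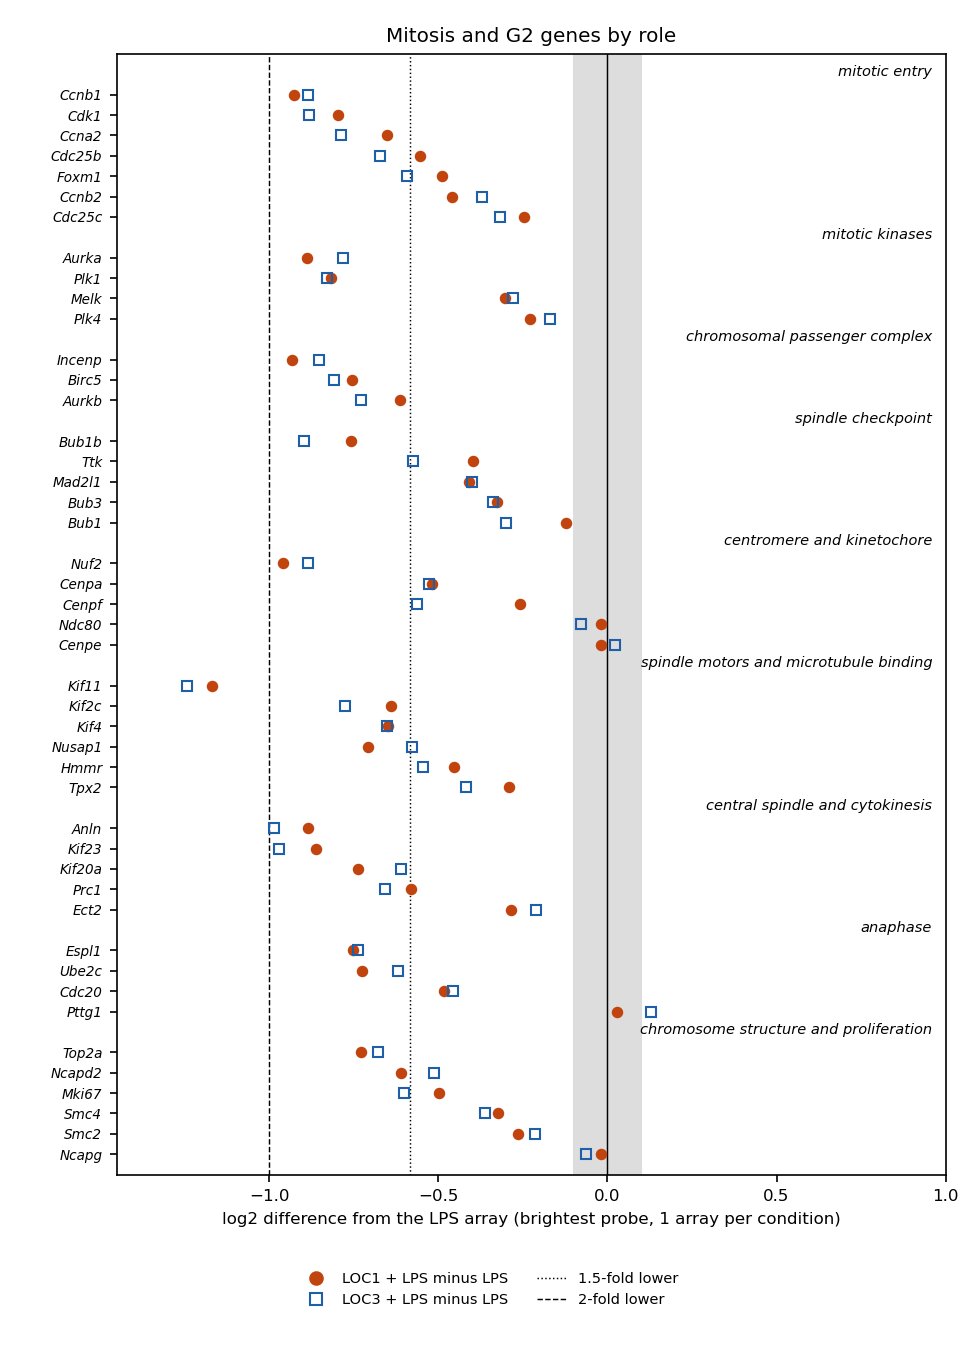
Log2 difference of each of the 45 genes from the LPS array, for LOC1 (filled circles) and LOC3 (open squares), with 1 array per condition and genes grouped by role. The grey band is 2 SD of the spot noise of bright probes. Kif11 alone lies beyond the 2-fold line, and Pttg1, Cenpe, Ncapg and Ndc80 lie near 0, where the sign turns with the scaling.

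In the plot by role, each role has members to the left of the band, and the symbols of a gene lie close together, with Cenpf farthest apart.

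The genes of mitotic entry had medians of -0.55 with LOC1 and -0.67 with LOC3, and all 7 were below the spot noise with both strains. Ccnb1, the main mitotic cyclin, stood at 5177, 2462 and 2549 on the arrays of LPS, LOC1 and LOC3, differences of -0.93 and -0.88. Cdk1, its kinase, stood at 1427, 743 and 703, differences of -0.80 and -0.88. The Cdk1 probe spans an intron in mm9 (chr10:68805423-68807832), so it reads spliced RNA. Foxm1, a transcription factor that drives many genes of this class, stood at 1250, 804 and 753, differences of -0.49 and -0.59. Ccna2, the cyclin of S and G2 phase, differed by -0.65 and -0.79. Among the weaker members were the second B-type cyclin Ccnb2, at -0.46 and -0.37, and the phosphatase Cdc25c, at -0.25 and -0.32.

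Of the mitotic kinases, Plk1, which acts from entry to cytokinesis, stood at 5691 with LPS, 2919 with LOC1 and 2914 with LOC3, differences of -0.82 and -0.83. Aurka, the Aurora kinase of the spindle poles, differed by -0.89 and -0.78. Plk4, which starts centriole duplication, stood at 605, 466 and 489, differences of -0.23 and -0.17. Melk differed by -0.30 and -0.28.

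The chromosomal passenger complex corrects faulty attachments, and its 3 members in this list were each lower by over 1.5-fold with both strains. A further subunit, Cdca8 (borealin), counted below with the other mitosis genes, differed less, at -0.20 and -0.30. Incenp, the scaffold, stood at 19513 with LPS, 9235 with LOC1 and 9822 with LOC3, differences of -0.93 and -0.85. Birc5, also known as survivin, stood at 19035, 10202 and 9877, differences of -0.75 and -0.81. Aurkb, the kinase of the complex, stood at 1022, 604 and 560, differences of -0.61 and -0.73.

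The spindle checkpoint genes differed less, with a median of -0.40 with each strain. Bub1b was the exception at -0.76 and -0.90. Ttk, the kinase that starts checkpoint signalling, differed by -0.40 and -0.58, Mad2l1 by -0.41 and -0.40, and Bub3 by -0.33 and -0.34. Bub1 was nearest to 0, at -0.12 and -0.30, and was above 0 with LOC1 under median scaling.

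The centromere and kinetochore genes split, also inside a single complex. Nuf2 and Ndc80 encode partners that bind each other in the arm that grips microtubules. Nuf2 stood at 2426 with LPS, 1128 with LOC1 and 1193 with LOC3, differences of -0.96 and -0.89. Ndc80 stood at 662, 591 and 569, differences of -0.02 and -0.08, both inside the spot noise. Under median scaling Ndc80 was above 0 with both strains. Each of them was read by a single probe above background. Cenpe, a kinetochore motor, stood at 7343, 6547 and 6781, differences of -0.02 and 0.02, and its sign turned with the scaling with both strains. Cenpa, the histone H3 variant that marks centromeres, differed by -0.52 and -0.53.

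The spindle motors held the lowest gene of all. Kif11, the kinesin that pushes spindle poles apart, stood at 348 with LPS, 140 with LOC1 and 134 with LOC3, differences of -1.17 and -1.24. On the scaled levels this left 44.5% and 42.2% of the LPS level. Kif11 stayed past 2-fold under the other settings but reached only -0.88 and -0.91 with normexp background correction, and -0.98 with LOC1 under median scaling. Kif2c, a kinesin that takes microtubules apart, differed by -0.64 and -0.78, and Kif4, a chromosome-bound kinesin, by -0.65 with each strain. Nusap1, which bundles spindle microtubules, differed by -0.71 and -0.58, and Hmmr, a spindle-associated protein, by -0.45 and -0.54. Tpx2, the activator of Aurora A on the spindle, was weaker at -0.29 and -0.42.

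The genes of the central spindle and cytokinesis had medians of -0.74 with LOC1 and -0.66 with LOC3. Anln, a scaffold of the contractile ring, stood at 4411 with LPS, 2161 with LOC1 and 2025 with LOC3, differences of -0.88 and -0.99. Kif23, a kinesin of the central spindle, stood at 498, 248 and 231, differences of -0.86 and -0.97, on a probe that spans an intron (mm9, chr9:61767733-61768853). Kif20a, a kinesin that brings the passenger complex to the midzone, differed by -0.74 and -0.61. Prc1, the microtubule bundler of the midzone, differed by -0.58 and -0.66. Ect2, the exchange factor that activates RhoA for furrowing, was weaker at -0.29 and -0.21.

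Among the anaphase genes, separase and its inhibitor gave different values. Espl1, which encodes separase, the protease that cuts cohesin, had differences of -0.75 and -0.74. Pttg1, which encodes securin, the inhibitor of separase, stood at 34219 with LPS, 31568 with LOC1 and 33984 with LOC3, differences of 0.03 and 0.13, both of which are below 0 under quantile normalization and spike-in scaling. A dimmer Pttg1 probe, at 408, 282 and 302, gave -0.39 and -0.29, so the probes of Pttg1 disagree in sign. Cdc20, the activator of the anaphase-promoting complex, stood at 11934, 7727 and 7902, differences of -0.48 and -0.46. Ube2c, the ubiquitin-conjugating enzyme that works with that complex, differed by -0.73 and -0.62.

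Of the genes of chromosome structure, Top2a, the topoisomerase that untangles sister chromatids, stood at 10501 with LPS, 5727 with LOC1 and 5961 with LOC3, differences of -0.73 and -0.68. Mki67, the proliferation marker Ki-67, stood at 13953, 8935 and 8360, differences of -0.50 and -0.60. The condensin subunits differed among themselves. Ncapd2 was at -0.61 and -0.51, Smc4 at -0.32 and -0.36, and Smc2 at -0.27 and -0.22. Ncapg stood at 3517, 3141 and 3058, differences of -0.02 and -0.06, inside the spot noise and above 0 with both strains under median scaling.

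The choice of scaling moved all genes together. Under median scaling the median of all genes was 0.22 with LOC1 and 0.23 with LOC3, and under scaling to the spike-in RNAs it was -0.19 and -0.22. Relative to the median of all genes, the median of the mitosis and G2 genes lay between -0.60 and -0.54 with LOC1 and between -0.80 and -0.61 with LOC3 over the scalings, background correction, filters and probe rules tried. The number of these genes at least 1.5-fold lower ran from 9 to 31 with LOC1 and from 13 to 37 with LOC3. The lowest of these counts came with median scaling, where 6.29% of all genes were so with LOC1 and 5.75% with LOC3, and the highest with spike-in scaling, where 18.7% and 18.8% were so. Between 40 and 45 of them were below 0 with LOC1, and between 41 and 45 with LOC3.

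The array of LOC1 was next set against that of LOC3. The median difference over the 45 genes was 0.01, with a range from -0.13 to 0.30. No gene was 1.5-fold apart in either direction, where 3.77% of all genes were lower and 2.02% higher with LOC1 by that much. Differences lay inside 2 SD of the spot noise of bright probes for 28 of the 45 genes, and for 52.6% of all genes compared, dim ones included. Cenpf, a kinetochore protein that accumulates in G2, was farthest apart at 0.30, with intensities of 1635, 1235 and 1007 for LPS, LOC1 and LOC3. A further Cenpf probe read -0.31 with LOC1 and -0.48 with LOC3, in the same order. Without replicate arrays, the data do not show that the strains acted alike.

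Most genes were read by more than 1 probe. Of the 91 probes, 77 were well above background on all 3 arrays and 8 on none, and 17 genes had a single probe. Of the 77, 76 lay below 0 with LOC1, at a median of -0.55, and 74 with LOC3, at a median of -0.58. Of all probes well above background on all 3 arrays, 45% lay below 0 with LOC1 and 42.6% with LOC3. Within the 22 genes that had at least 2 such probes, the probes spanned a median of 0.12 with LOC1 and 0.21 with LOC3. The span was over 0.5 for Kif23, Ncapd2 and Top2a with LOC1, and for the same genes and Cdc25b with LOC3.

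The dim probes of Top2a and Ncapd2 were lower by more than the bright ones. The Top2a probe at chr11:98877908-98877967 (mm9), designed on transcript ENSMUST00000139730, stood at 276 with LPS, 76.8 with LOC1 and 83.3 with LOC3, differences of -1.70 and -1.59. Another Top2a probe at chr11:98883581-98883640, on ENSMUST00000129777, stood at 113, 21.5 and 20.9, which is -2.25 with LOC1. With LOC3, where it was not well above background, its reading was 4.91-fold lower, which is not a bound. Both bright Top2a probes were designed on NM_011623, and the second of them differed by -0.67 and -0.73. The dim Ncapd2 probe at chr6:125126025-125126084, on ENSMUST00000186561, stood at 117, 45.3 and 35.8, differences of -1.22 and -1.57. A dim Prc1 probe on ENSMUST00000172911 stood at 52.3, 16.8 and 18.4, which is -1.50 with LOC1, and was not well above background with LOC3. The bright Prc1 probe gave -0.58 with LOC1. These probes were designed on other transcript models than the bright ones, and which RNA they read was not tested.

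The dim probe of Kif23 did not share this with either strain, and that of Cdc25b did not with LOC3. The dim Kif23 probe, at an intensity of 74.5 with LPS, differed by -0.22 and -0.12. A Cdc25b probe at chr2:131018363-131018422 stood at 50.02, 27.4 and 52.1 for LPS, LOC1 and LOC3, so it differed in sign between strains, at -0.72 and 0.20, while the bright Cdc25b probe gave -0.55 and -0.67. For dim probes the spot noise was larger, with an SD of 0.31 read from only 9 to 12 probes.

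**Figure D3:**
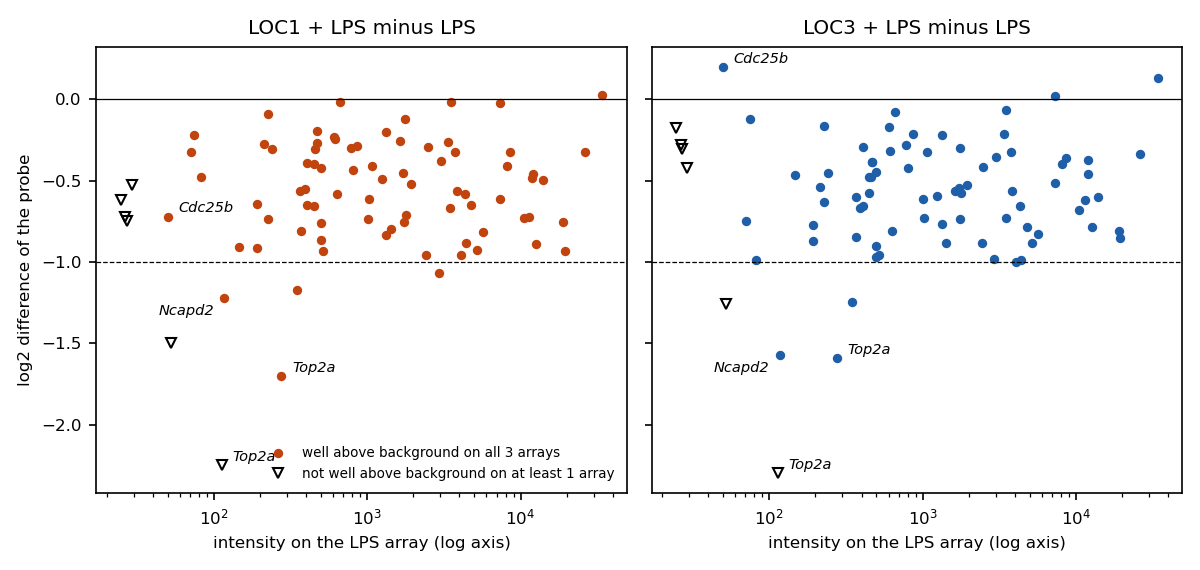
Log2 difference of every probe of the 45 genes detected on at least 1 array, against its intensity on the LPS array (log axis), for LOC1 (left) and LOC3 (right). Filled points were well above background on all 3 arrays, triangles were not on at least 1, and the dashed line is 2-fold lower; the dim Top2a and Ncapd2 probes lie beyond it, and a dim Cdc25b probe lies above 0 with LOC3 alone.

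In the plot of probes, most probes lie between -1 and 0 over the whole range of intensity, and those beyond -1.5 lie among the dim probes.

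The deposited log2 ratios set each array against unchallenged macrophages, and they list a probe only where a ratio reached 2-fold. A gene with no listed ratio has no bound from this table. In the LPS column 16 of the 45 genes were listed, all lower than unchallenged, at a median of -1.23, where 11.2% of all detected genes were listed lower and 14.1% higher. In the LOC1 column 34 were listed, all lower, at a median of -1.60, where 15.7% of all genes were listed lower. In the LOC3 column 34 were listed, all lower, at a median of -1.70, where 16.6% were listed lower. The 3 columns share the unchallenged array, and a listed gene had to be past 2-fold, so these medians describe the listed genes only and nothing is read from the counts.

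Where any column listed a ratio, the unchallenged level could be taken from it and the array, for probes well above background on all 3 arrays. This gave all conditions for 35 of the genes, 27 of them by the brightest probe, and for 5572 genes of the whole array. The 10 genes without such a level were Ccnb2, Plk4, Bub1, Bub3, Mad2l1, Cenpe, Ndc80, Pttg1, Smc4 and Ncapg. Ncapg was listed by a dim probe alone, which was well above background on the LPS array only. Those genes had to be past 2-fold in at least 1 column to enter, so the order of their levels is a description of the genes that entered. All 35 were highest in unchallenged macrophages, lower with LPS alone and lowest on the arrays of both strains, as were 29.5% of the 5572 genes. Their medians against unchallenged were -0.92 after LPS alone, -1.56 after LOC1 and -1.67 after LOC3. At least 2-fold lower were 13 of them with LPS, where 26.9% of the 5572 genes were so, 33 with LOC1, where 36.9% were so, and 34 with LOC3, where 37.5% were so. Nothing is read from these counts either.

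On the probes used for these 35 genes, Foxm1 differed most from unchallenged after LPS alone, with an implied unchallenged intensity of 3929 and a difference of -1.65, reaching -2.14 with LOC1 and -2.25 with LOC3. Espl1 differed by -1.40 with LPS, then by -2.15 and -2.13. Kif11 differed by -0.96 with LPS, then by -2.13 and -2.20, so the larger step was that between LPS and the strains. Ccnb1, on a dimmer probe, differed by -0.41 with LPS and by -1.35 and -1.37 with the strains. Ect2 showed the other pattern, with -1.20 already with LPS and -1.49 and -1.41 with the strains. Ube2c differed least with LPS, at -0.28. The dim Ncapd2 probe described above, not the one used for the gene here, was further below unchallenged than any of these, at -2.32, -3.54 and -3.89 for LPS, LOC1 and LOC3.

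**Figure D4:**
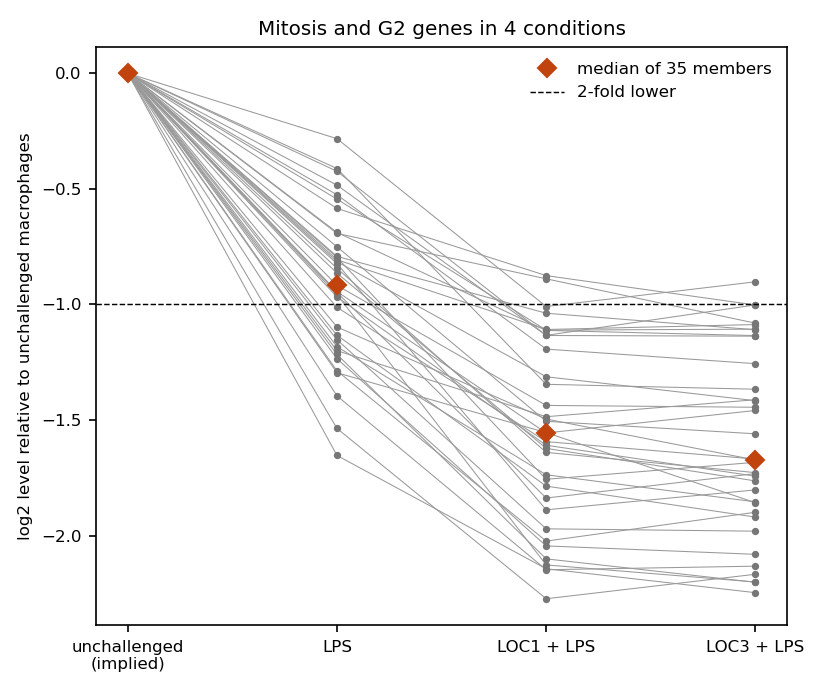
Log2 level of 35 genes relative to the unchallenged level implied by the deposited ratios, in LPS, LOC1 + LPS and LOC3 + LPS, with 1 array each; lines join the values of a gene and do not stand for time. The medians are -0.92, -1.56 and -1.67, and only genes past 2-fold in at least 1 condition could enter.

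The plot of all conditions shows every gene lower with LPS than unchallenged and lower again with both strains, and the levels of the strains close together.

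Other lists of cell cycle genes were measured in the same way, and they too were drawn up with earlier results known. Nothing is read from their counts against the shares of all genes. Of 65 other mitosis genes, 52 lay below 0 with LOC1, where 46.3% of all genes did, and 54 with LOC3, where 41.9% did. Their medians were -0.35 and -0.32. At least 2-fold lower were 8 of them with LOC1, where 3.5% of all genes were so, and 6 with LOC3, where 2.92% were so. None was 1.5-fold higher, where 8.75% and 8.65% of all genes were so. The lowest with both strains were Fbxo5, which encodes an inhibitor of the anaphase-promoting complex, at -1.58 and -1.49, and Ckap2l, a spindle protein, at -1.53 and -1.57. Hjurp, the chaperone of Cenpa, was at -1.46 and -1.21, beside the -0.52 and -0.53 of Cenpa itself. Cdca2 was at -1.32 and -1.21, and Ccnf, the cyclin of an SCF ubiquitin ligase, at -1.14 and -1.04.

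The medians of the lists of other phases lay nearer to those of all genes. Of 41 DNA replication genes compared, 23 lay below 0 with LOC1 and 27 with LOC3, with medians of -0.04 and -0.18. Of all genes, 46.3% and 41.9% lay below 0. At least 1.5-fold lower were 3 replication genes with each strain, where 10.5% and 8.71% of all genes were so. By as much, 4 were higher with each strain, where 8.75% and 8.65% were so. Tk1, thymidine kinase, was lower at -1.002 and -1.07, and Cdt1, which licenses origins and is destroyed in S phase, was higher at 1.39 and 1.16. Of 23 genes of G1 and the CDK inhibitors, 14 lay below 0 with LOC1 and 12 with LOC3, with medians of -0.08 and -0.04. Beside the same shares of all genes, 1 was at least 1.5-fold lower with each strain, and 3 were higher with LOC1 and 2 with LOC3. Ccng2, an unconventional cyclin linked to cell cycle arrest, was higher at 1.03 and 1.06.

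**Figure D5:**
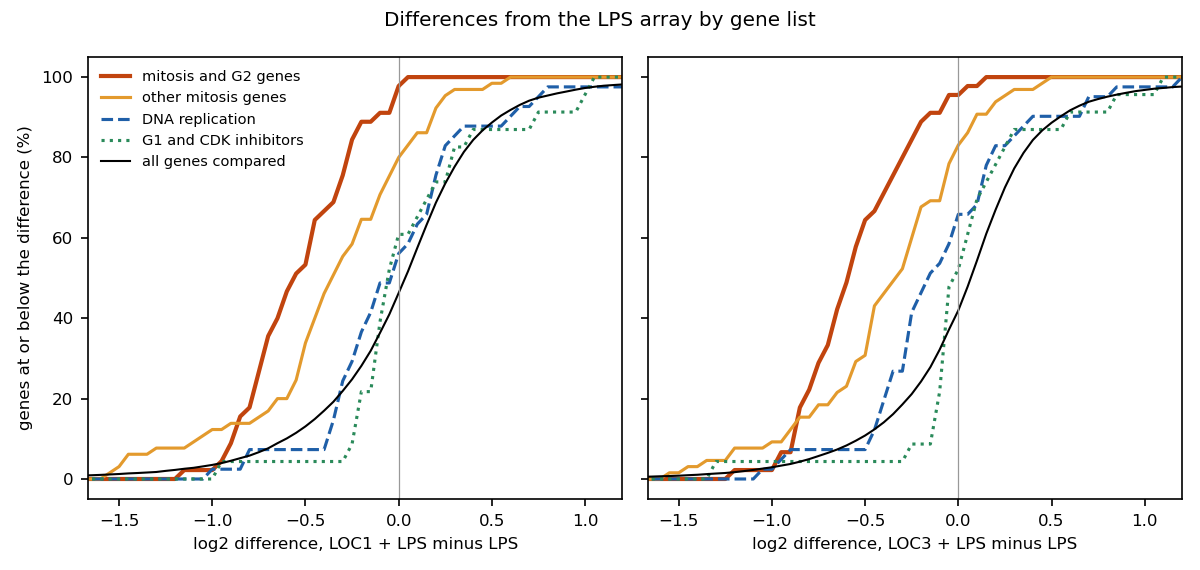
Cumulative share of genes (%) at or below each log2 difference from the LPS array, for LOC1 (left) and LOC3 (right), in 5 lists. The medians of the mitosis and G2 genes (-0.55 and -0.59) lie left of those of the other mitosis genes (-0.35 and -0.32). Those of the replication (-0.04 and -0.18) and G1 lists (-0.08 and -0.04) lie nearer to those of all genes.

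In the cumulative plot most genes of both mitosis lists lie below 0, and the other mitosis genes have the longer left tail of these lists. Of the 65 other mitosis genes, 13 lay above 0 with LOC1 and 11 with LOC3. Both lists were drawn up with earlier results known, so the plot is a description only.

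Genes with and without CHR letters in their promoter window were set side by side. The 26 with the letters had medians of -0.60 with LOC1 and -0.61 with LOC3, and the 11 without had medians of -0.41 and -0.40. The ranges overlapped almost wholly, from -1.17 to -0.02 with the letters and from -0.96 to 0.03 without them with LOC1. Ccnb1 and Nuf2 were among the lowest genes without CHR letters in the window, while Ncapg, which holds them as printed above, was inside the spot noise.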

How the data were processed

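The authors made labelled complementary material from 200 ng of RNA per sample and hybridised it to 1-colour Agilent mouse arrays. The intensity values were deposited by the authors as background-subtracted Feature Extraction output, without scaling between arrays. The software version is given as 12.0.3.1 in the headers, whereas the methods name 10.7.3.1. The log2 ratios to unchallenged macrophages were deposited by the authors after GeneSpring 13.1, listed only past 2-fold, for 13135 probes. The gene names and mm9 probe positions are those of the scanner files.

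From these, spots of a probe were averaged without the 118 to 135 spots per array marked as outliers, and log2 intensity less the 75th percentile over the 56605 probes was compared. No spot was saturated. Signals were well above background for 51.9%, 50.4% and 47.8% of probes with LPS, LOC1 and LOC3. A gene was read by its brightest probe and compared if either array of the pair read it well above background, with a dim signal raised to the lowest signal well above background, an intensity of 16.3, 14.5 and 19.8 in that order. The implied unchallenged level is the level of an array less its deposited ratio. The number of arrays limits the precision.

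The members and lists, their roles and the motifs were chosen with earlier results of these data known. Values on every array were given for Kif11, past 2-fold from LPS, for the 5 highest and 5 lowest by the mean of both strains, and for Ccnb1, Cdk1, Plk1, Aurkb, Birc5, Cdc20, Mki67, Top2a and Foxm1. Probes were named where they differed in sign by over 0.5. The remaining intensities, among them those of Cenpf and of dim probes, were chosen after their values were seen. The plan also asked for members past 2-fold from unchallenged, but several of these, such as Ccna2 and Espl1, were given as differences only. The t-test of the methods needs more than 1 array per condition and was not run. Simulated arrays were built from the LPS array with spot noise alone, once under each strain name, with 200 genes planted at a 4-fold change. The run named LOC1, of 20145 genes, recovered 94.5% of them at 2-fold and called 11 unplanted genes. The run named LOC3, of 20128 genes, recovered 93.5% and called 7. No LOC1 or LOC3 array entered, the runs hold no spread between cultures, and smaller shifts were not tried.

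Alternatives were median scaling, the 75th percentile over probes detected throughout, quantile normalization, normexp background correction (limma 3.58.1, R 4.3.3, offset 50), 2 other filters on dim signals, the mean of detected probes, every probe by itself, outlier spots kept, and 1.5-fold and 3-fold thresholds. The 75th percentile over spots and scaling to 8 of 10 spike-in probes were chosen after the data were seen. Python 3.11.15, numpy 2.4.6, pandas 2.3.3 and matplotlib 3.10.9 were used. Promoter windows came from RefSeq, GRCm38.p6. A further marker of the cell type check is not reported here.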

Additional observations from a re-analysis of the deposited data

How the results depend on the processing

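The median difference of the 45 genes from the LPS array stayed below 0 with both strains under every setting tried. With LOC1, where it was -0.55, it was -0.37 under median scaling, -0.63 with the 75th percentile over detected probes, -0.50 with normexp and -0.78 with spike-in scaling. With LOC3, where it was -0.59, it was -0.43, -0.67, -0.65 with quantile normalization and -0.88 with spike-in scaling. The difference of LOC1 from LOC3, 0.01, was 0.079 with spike-in scaling. The count of genes past 2-fold with LOC1, which was 1, was 21 at 1.5-fold, 0 at 3-fold, 0 under median scaling, 4 with the percentile over detected probes, 4 with quantile normalization, 0 with normexp, 2 with the mean of probes, 6 of 83 over single probes and 9 with spike-in scaling. With LOC3, also 1, it was 23 at 1.5-fold, 0 at 3-fold, 3 with the percentile over detected probes, 2 with quantile normalization, 0 with normexp, 3 with the mean of probes, 5 of 83 over single probes, 3 with the percentile over spots and 15 with spike-in scaling. The share of all genes at least 2-fold lower moved as well, from 0.999% with normexp to 6.22% with spike-in scaling for LOC1 and from 0.737% to 6.30% for LOC3. The median against unchallenged macrophages with LPS, -1.23 over 16 genes with listed ratios, was -0.93 over the 36 genes with an implied level when Ncapg, read by a dim probe, is included. Of 78 alternatives computed, the other 50 moved no median by 1 SD of spot noise and no count by over 1.5 times, and the cause of the changes was not tested. With 1 array per condition, differences among cultures cannot be told from those among conditions. No paired analysis was possible because each condition has 1 array and the result comes from no test.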
